A study of Mus musculus with 35 samples.

Results

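Ifi44, Xaf1, Rtp4, Ifi27l2a, Phf11b, Phf11c, Phf11d, Epsti1, Lgals3bp and Daxx are 10 interferon-stimulated genes, all found in the table of 53379 genes by their Ensembl identifiers, and all 10 are described here. They were chosen by their strong induction in these same libraries, so their response to treatment is given as a description without a test. Tests of the members are kept for contrasts between spleen and tumor, between cell types and with bulk tumor. These contrasts use libraries that also entered the choice, so their p-values are not independent of it. The data are RNA-seq counts from myeloid-derived suppressor cells (MDSC), immature myeloid cells that expand in tumor-bearing hosts and dampen T cell responses. The question was how the transcriptome of these cells changes when tumor-bearing mice receive a systemic double-stranded RNA mimic.

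T110299 cells, a mouse pancreatic tumor line, were placed in the pancreas of syngeneic C57BL/6 mice, so every group shares the same tumor line and the same host strain, and the study's methods name female wild type mice of matched age. Treated mice received poly(I:C)c, which is 50 µg poly(I:C) bound to a polyethylenimine carrier at an N/P ratio of 6, by vein on days 18 and 20 after implantation. The control mice are labelled untreated, while the treatment protocol names glucose as their control injection. PMN-MDSC (polymorphonuclear MDSC, sorted as CD11b+ Ly6Clo Ly6G+) and M-MDSC (monocytic MDSC, sorted as CD11b+ Ly6Chi Ly6G-) were taken from the spleen and the tumor, and whole tumor tissue of untreated mice was lysed without sorting. Of 35 libraries, 34 were used, with 4 in each group except for 3 in treated spleen PMN-MDSC and 3 in treated tumor M-MDSC. A further treated tumor M-MDSC library held 10 counts and was left out. The study describes its replicates as mice, and the columns do not say which mouse a library came from. Sample titles give the same numbers to libraries of different populations, so groups that are compared here as independent may hold cells of the same mice.

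The MDSC libraries held 793070 to 4357105 counts and the bulk tumor libraries 3771590 to 8886115. A count of 0 therefore allows a level of up to 3.78 CPM (counts per 1000000 counts of a library) in the smallest library and 0.338 CPM in the largest, at 3 counts per library, and this limit covers counting error only, since PCR copies were not marked. Ly6g, the marker of the PMN-MDSC gate, stood at 34.5 to 335 CPM in spleen PMN-MDSC and at 0 to 4.73 CPM in both M-MDSC populations. In untreated tumor PMN-MDSC it reached only 0 to 9.19 CPM, and the summed level of 5 macrophage markers was 2820 to 3656 CPM there against 229 to 717 CPM in untreated spleen PMN-MDSC, none of them at 0 in every library. No Ly6g count was found in bulk tumor. Of 4 epithelial markers, the summed level was 89.5 to 617 CPM in untreated tumor PMN-MDSC, 13.7 to 234 CPM in untreated tumor M-MDSC and 4014 to 5921 CPM in bulk tumor. In bulk libraries, and in sorted populations that hold other cells, fewer cells of a type and less RNA per cell cannot be told apart.

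Several of the 10 genes moved together with single libraries that stood apart. The treated spleen PMN-MDSC library with the fewest counts (1561674) held the lowest level of all 10 genes among the 3 libraries of its group, with a mean log2(CPM + 1) over the genes of 6.12 against 7.48 and 7.48. Its neutrophil marker sum was the highest of the 3 at 29177 CPM. The untreated spleen PMN-MDSC library with the most counts (3769395) held the highest mean of its group, 4.65 against 3.87 to 4.16, and also the highest summed monocyte markers, 2037 CPM against 662 to 1090.1 CPM. In treated tumor M-MDSC, the library with the most counts (4357105) had a mean of 6.34 against 7.19 and 7.29, and its macrophage marker sum was 8055 CPM against 1758 and 3448 CPM. Whether these markers have a part in the levels of the 10 genes was not tested. Several values that rest on these libraries are given with and without them.

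Double-stranded RNA in the cytosol is sensed by the RIG-I-like receptors, which switch on the genes of type I interferon (IFN). Secreted IFN binds the receptor chains IFNAR1 and IFNAR2, the kinases JAK1 and TYK2 become active, and a complex that holds STAT2 and IRF9 then binds the interferon-stimulated response element (ISRE) in the promoters of its target genes. Genes induced in this way include direct antiviral effectors, regulators of cell death and genes whose role is poorly defined. Xaf1 and Daxx are linked to cell death and chromatin: XAF1 binds and antagonizes the caspase inhibitor XIAP, and DAXX is a histone H3.3 chaperone that acts with ATRX and resides in PML nuclear bodies. Rtp4 encodes a chaperone that helps G protein-coupled receptors reach the cell surface. Ifi27l2a encodes a small hydrophobic protein of the ISG12 family, and Lgals3bp a secreted glycoprotein that binds galectins. Phf11b, Phf11c and Phf11d are mouse relatives of PHD finger protein 11. Epsti1 was first described as a gene of epithelial and stromal interaction in breast cancer, and Ifi44 encodes a cytoplasmic interferon-induced protein of poorly defined mechanism.

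Promoter windows, 250 bases before to 50 bases after the annotated start, were read from RefSeq (GRCm38.p6) for 8 of the 10 genes. Rtp4 and Ifi27l2a had no entry. Both strands were searched for the ISRE core GAAANNGAAA and for the core TTCNNNGAA of the gamma-activated site (GAS). The ISRE core lay in the window of 1 gene, Phf11b, and in 3.99% of all 27025 genes with a window, while the GAS core was in a window of 0 of the 8 genes and of 9.55% of all genes. A relaxed core, AAANNGAAA, which was chosen after the sequences had been seen and which every ISRE core also contains, was held by 4 of the 8 genes and by 12.1% of all genes (10.6% of the 32851 windows, since some genes have several). The 4 matches are shown so that their letters can be compared, that of Phf11b as the longer ISRE core which contains the relaxed one. Capitals mark the match, and each stretch is written 5′ to 3′ on the strand of the gene, ending at the latest just before the start site.
Ifi44, chr3:151749937-151749985, minus strand: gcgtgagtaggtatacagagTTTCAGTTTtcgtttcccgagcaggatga
Xaf1, chr11:72301592-72301628, plus strand: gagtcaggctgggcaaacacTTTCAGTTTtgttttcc
Phf11b, chr14:59341351-59341400, minus strand: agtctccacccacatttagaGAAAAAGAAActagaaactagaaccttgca
Lgals3bp, chr11:118401960-118401994, minus strand: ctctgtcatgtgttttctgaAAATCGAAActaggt
Ifi44 and Xaf1 hold the same 9 letters, TTTCAGTTT, which is the relaxed core read on the opposite strand. Their first base lies 55 bases before the start of Ifi44 and 17 bases before that of Xaf1. The match begins 50 bases before the start in Phf11b and 15 bases before it in Lgals3bp. These distances use the RefSeq starts, while the gene positions given below come from GENCODE. By those positions the Lgals3bp match lies inside the gene and the Ifi44 match spans the gene's end. No window of Phf11c, Phf11d, Epsti1 or Daxx held these letters, which says nothing of binding elsewhere.

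All 10 are protein coding genes of GRCm38. Phf11b (ENSMUSG00000091649.3, chromosome 14, 59320964 to 59341351), Phf11d (ENSMUSG00000068245.14, 59347407 to 59365470) and Phf11c (ENSMUSG00000091144.2, 59380833 to 59395381) are neighbours on the minus strand. Of 1135 stretches of 50 bases in the transcripts of Phf11b, 209 (18.4%) also occur in Phf11c, 177 (15.6%) in Phf11d and 295 in a further relative, Phf11a. Reads from these stretches cannot be placed, so the split of counts within the Phf11 group is uncertain. Ifi27l2a (ENSMUSG00000079017.3, chromosome 12, 103442167 to 103443680) shares 2 of 414 such stretches with Ifi27l2b. Rtp4 (ENSMUSG00000033355.6, chromosome 16, 23520291 to 23614222) is overlapped on its own strand by Gm45338, whose mean level was at most 0.623 CPM in any group, and on the other strand by Masp1, at most 0.858 CPM. The other members overlap no annotated gene: Ifi44 (ENSMUSG00000028037.13, chromosome 3, 151730922 to 151749960), Xaf1 (ENSMUSG00000040483.15, chromosome 11, 72301629 to 72313733), Epsti1 (ENSMUSG00000022014.15, chromosome 14, 77904239 to 78002657), Lgals3bp (ENSMUSG00000033880.11, chromosome 11, 118392751 to 118402092) and Daxx (ENSMUSG00000002307.15, chromosome 17, 33909414 to 33915590).

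**Figure D1:**
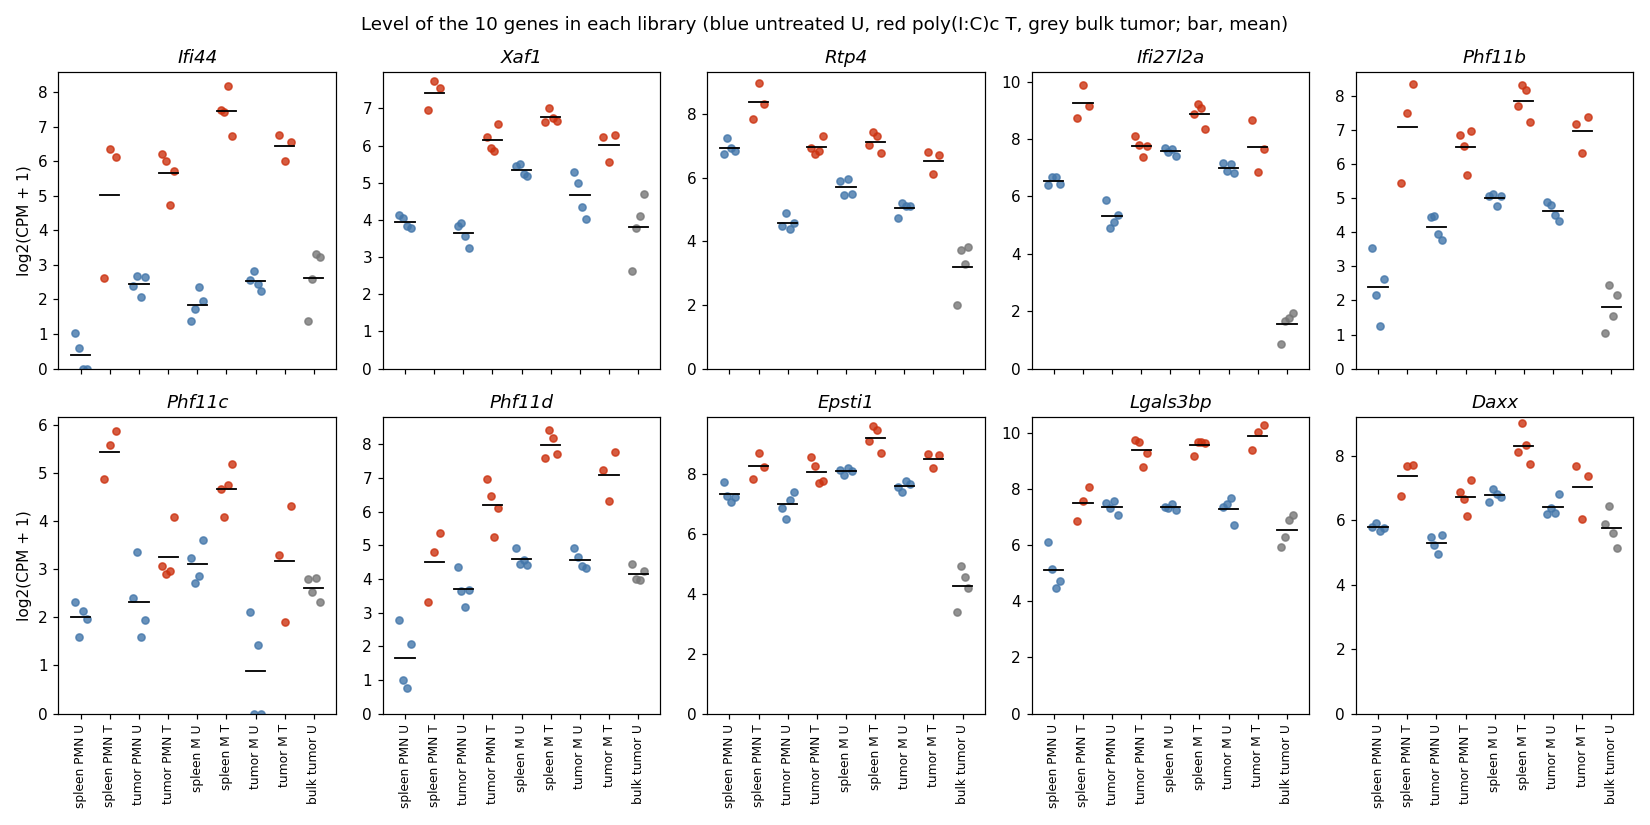
Level of each gene as log2(CPM + 1) in every library of the 9 groups, with U for untreated and T for poly(I:C)c (points are libraries, bars are means of the log2 values, and each panel has its own vertical range starting at 0). Ifi44 lies at 0 to 1.06 CPM in untreated spleen PMN-MDSC and at 105 to 289 CPM in treated spleen M-MDSC, and in treated spleen PMN-MDSC 1 library lies far below the other 2.

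Per kilobase of exon, Ifi27l2a was the most abundant of the 10 transcripts in spleen M-MDSC with and without treatment, and Ifi44 the least abundant without it. In untreated spleen M-MDSC the mean level was 408 FPKM (CPM per kilobase of exon) for Ifi27l2a, 118 FPKM for Epsti1, 57.1 FPKM for Lgals3bp and 0.445 FPKM for Ifi44. After treatment the same population held 1043 FPKM of Ifi27l2a, 261 FPKM of Epsti1, 266 FPKM of Lgals3bp and 30.2 FPKM of Ifi44. The genes therefore spanned a wide range of levels before treatment, and the changes described next start from very different baselines.

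Ifi44 showed the widest range between groups. In spleen PMN-MDSC its level was 1.06, 0.498, 0 and 0 CPM in untreated libraries and 5.12, 81.3 and 68.8 CPM in treated libraries. The untreated level rests on 5 counts in 4 libraries, against 418 counts in 3 treated libraries, a ratio of 141 in CPM over the pooled libraries with a 95% counting interval of 59.8 to 436. This interval covers counting error in the pooled reads only. It leaves out the spread between libraries, which is wide here, and is no test of the response. Of the 5 untreated counts, 4 come from the library with the most monocyte marker counts, and without it the fitted log2 difference goes from 7.14 to 8.47, a value that at so few counts depends on the prior count and is no bound. The lowest treated value belongs to the library with the fewest counts, without which the fitted difference is 7.67, and omissions of a single library gave 6.63 to 8.47. In spleen M-MDSC Ifi44 went from 1.58, 2.32, 4.14 and 2.86 CPM to 176, 171, 289 and 105 CPM, a log2 difference of 6.11 ± 0.39 (SE, edgeR), the highest level of any group. In tumor PMN-MDSC it went from 4.25, 5.42, 3.20 and 5.22 CPM to 73.7, 63.5, 25.5 and 51.7 CPM (log2 3.53 ± 0.35). In tumor M-MDSC the values were 4.95, 6.07, 4.44 and 3.78 CPM before and 108, 63.1 and 92.5 CPM after treatment (log2 4.08 ± 0.28). In none of the 4 populations was there an overlap of the treated with the untreated libraries, a description of a gene that was chosen by its induction. Ordered by mean level, 7 of the 8 neighbouring pairs of groups overlapped, and the gap was between untreated spleen M-MDSC and untreated spleen PMN-MDSC.

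Xaf1, the XIAP antagonist, differed from Ifi44 in where it was highest. Treated spleen PMN-MDSC held 122, 211 and 188 CPM against 16.4, 15.4, 13.2 and 12.8 CPM in untreated ones (log2 3.88 ± 0.26). In treated spleen M-MDSC it stood at 97.8, 128, 105 and 99.95 CPM, from 42.7, 44.1, 36.4 and 35.5 CPM before (log2 1.52 ± 0.14). Tumor PMN-MDSC held 13.3, 14.1, 10.8 and 8.54 CPM untreated and 74.8, 60.4, 56.6 and 94.3 CPM treated (log2 2.61 ± 0.27). The untreated level of Xaf1 was thus lower in PMN-MDSC, and the treated level was not. Tumor M-MDSC held 37.9, 31.001, 19.4 and 15.1 CPM untreated and 73.7, 46.4 and 77.01 CPM treated (log2 1.23 ± 0.33). All 4 treated groups lay above all untreated groups in mean level, and the gap between the lowest treated group and the next was without overlap.

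Rtp4, the receptor chaperone gene, was already well expressed in untreated spleen PMN-MDSC, at 107, 151, 122 and 113 CPM. With treatment it stood at 229, 507 and 319 CPM there (log2 1.81 ± 0.31). Tumor PMN-MDSC began at 21.2, 28.7, 20.0 and 22.8 CPM and held 123, 107, 115 and 159 CPM with treatment (log2 2.43 ± 0.23), which overlaps the range of the untreated spleen cells. In M-MDSC of the spleen the level went from 59.1, 42.7, 61.7 and 44.3 CPM to 129, 173, 159 and 109 CPM (log2 1.54 ± 0.19). In those of the tumor it went from 25.8, 35.7, 33.6 and 34.0 CPM to 111, 68.6 and 104 CPM (log2 1.46 ± 0.23).

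Ifi27l2a was present at a high level in every MDSC population before treatment. Spleen PMN-MDSC held 82.5, 102, 100.3 and 86.1 CPM untreated and 421, 945 and 562 CPM treated (log2 3.10 ± 0.31). Spleen M-MDSC held 206, 184, 199 and 167 CPM untreated and 465, 596, 544 and 328 CPM treated (log2 1.43 ± 0.19). In tumor PMN-MDSC the level was 57.6, 28.7, 33.2 and 39.4 CPM untreated and 276, 219, 166 and 214 CPM treated (log2 2.44 ± 0.23). Tumor M-MDSC were the exception to a clear separation, with 142, 117, 138 and 112 CPM untreated and 406, 114 and 198 CPM treated, so that 1 treated library lay inside the untreated range (log2 0.82 ± 0.37). That library was the one with the high macrophage marker sum. Without it the libraries of both groups are separate, and the log2 difference is 1.16, whereas without the treated library of the highest Ifi27l2a level it is 0.19.

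Within the Phf11 group the members did not share one pattern over cell types. Phf11d was at 192, 344, 290.0 and 207 CPM in treated spleen M-MDSC, from 29.5, 20.9, 22.8 and 20.2 CPM (log2 3.55 ± 0.24), but only at 8.96, 27.1 and 40.3 CPM in treated spleen PMN-MDSC, from 5.84, 0.996, 0.678 and 3.21 CPM (log2 3.48 ± 0.68). Phf11c had the higher mean in PMN-MDSC, with overlap between the cell types, at 28.2, 47.1 and 57.6 CPM in treated spleen PMN-MDSC, from 3.98, 1.99, 3.39 and 2.89 CPM (log2 4.12 ± 0.34), and at 24.5, 16.01, 25.995 and 35.4 CPM in treated spleen M-MDSC, from 8.44, 5.57, 6.21 and 11.2 CPM (log2 1.74 ± 0.30). Phf11b was high in both, at 42.9, 179 and 323 CPM in treated spleen PMN-MDSC, from 10.6, 3.49, 1.35 and 5.14 CPM (log2 5.39 ± 0.76), and at 209, 321, 287 and 151 CPM in treated spleen M-MDSC, from 32.7, 33.9, 26.1 and 32.6 CPM (log2 3.02 ± 0.24). The highest untreated Phf11b and Phf11d values of spleen PMN-MDSC came from the library with the most monocyte marker counts, and without it the log2 differences were 6.01 and 4.16. Over all omissions of a single library the differences ran from 4.72 (without the treated library of the highest Phf11b level) to 6.01 for Phf11b and from 3.15 to 4.16 for Phf11d, which could not be fitted without that treated library. Phf11a, which is no member but lies in the same family, stood at 1.90 ± 1.29 CPM (SD, n = 4) in untreated and 26.6 ± 16.8 CPM (SD, n = 3) in treated spleen PMN-MDSC, and at 5.27 ± 3.32 and 59.7 ± 13.5 CPM (SD, n = 4 each) in spleen M-MDSC.

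In the tumor, Phf11b went from 20.6, 21.1, 14.4 and 12.8 CPM to 114, 91.1, 50.2 and 124 CPM in PMN-MDSC (log2 2.45 ± 0.31) and from 28.6, 26.96, 21.9 and 18.9 CPM to 143, 79.9 and 166 CPM in M-MDSC (log2 2.32 ± 0.28). Phf11d went from 19.4, 11.4, 7.99 and 11.9 CPM to 123, 86.4, 36.9 and 67.6 CPM in PMN-MDSC (log2 2.62 ± 0.36) and from 29.1, 24.3, 20.0 and 18.9 CPM to 148, 78.0 and 217 CPM in M-MDSC (log2 2.58 ± 0.34). Both genes were thus separate between treated and untreated tumor libraries. Phf11c did not pass the minimum of 25 counts on average in either tumor comparison. It was at 4.25, 9.21, 1.998 and 2.85 CPM in untreated and 7.39, 6.49, 6.84 and 15.9 CPM in treated tumor PMN-MDSC, and at 3.299, 0, 1.66 and 0 CPM in untreated and 8.85, 2.75 and 18.8 CPM in treated tumor M-MDSC, and the groups overlapped in both.

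Epsti1, Lgals3bp and Daxx were expressed at substantial levels before treatment. Among the members that could be fitted, Epsti1 had the smallest difference in both PMN-MDSC populations and in spleen M-MDSC, with log2 values of 1.27 ± 0.27 in spleen PMN-MDSC, 1.06 ± 0.22 in tumor PMN-MDSC, 1.23 ± 0.19 in spleen M-MDSC and 0.82 ± 0.19 in tumor M-MDSC. In spleen M-MDSC, where it was highest, Epsti1 went from 281, 246, 291 and 274 CPM to 542, 771, 705 and 409 CPM. In treated spleen PMN-MDSC it stood at 225, 414 and 302 CPM, the lowest just above the highest of the untreated values of 209.6, 152, 132 and 149 CPM. The tumor groups of Epsti1 were also separate, at 116, 89.9, 140.3 and 167 CPM against 373, 306, 205 and 217 CPM in PMN-MDSC and at 186, 168, 218 and 203 CPM against 407, 291 and 395 CPM in M-MDSC.

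Lgals3bp, the gene of the galectin-binding glycoprotein, was the member whose highest mean level was found in the tumor, in treated tumor M-MDSC at 669, 1052 and 1246 CPM, from 162, 178, 202 and 103 CPM (log2 2.52 ± 0.28). Tumor PMN-MDSC held 867, 821, 444 and 629 CPM with treatment, from 181, 158, 192 and 134 CPM (log2 2.02 ± 0.22), and spleen M-MDSC 585, 827, 813 and 804 CPM, from 165, 159, 174 and 152 CPM (log2 2.30 ± 0.15). Spleen PMN-MDSC stood apart, with 67.7, 34.4, 21.003 and 25.4 CPM untreated and only 115, 192 and 269 CPM treated (log2 2.67 ± 0.44, 2.36 to 3.08 over omissions of a single library, the highest without the untreated library of high monocyte markers). The treated spleen PMN-MDSC libraries thus overlapped the level that the other 3 populations had before treatment.

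Daxx, the H3.3 chaperone gene, followed the pattern of Ifi27l2a in the tumor. Its level in tumor M-MDSC was 72.0, 82.2, 74.1 and 112 CPM untreated and 203, 64.7 and 164 CPM treated (log2 0.67 ± 0.36), with 1 treated library below all untreated ones. In spleen M-MDSC it went from 93.9, 124, 112 and 105 CPM to 275, 511, 320.4 and 214 CPM (log2 1.68 ± 0.25). Spleen PMN-MDSC went from 53.6, 59.3, 49.8 and 53.0 CPM to 108, 202 and 208 CPM (log2 1.98 ± 0.26), and tumor PMN-MDSC from 43.7, 36.8, 29.97 and 45.1 CPM to 116, 99.3, 68.4 and 150.3 CPM (log2 1.47 ± 0.27). The low treated tumor M-MDSC value is again that of the library with the high macrophage marker sum, and without it the log2 difference is 1.04, whereas without the treated library of the highest Daxx level it is 0.33.

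**Figure D2:**
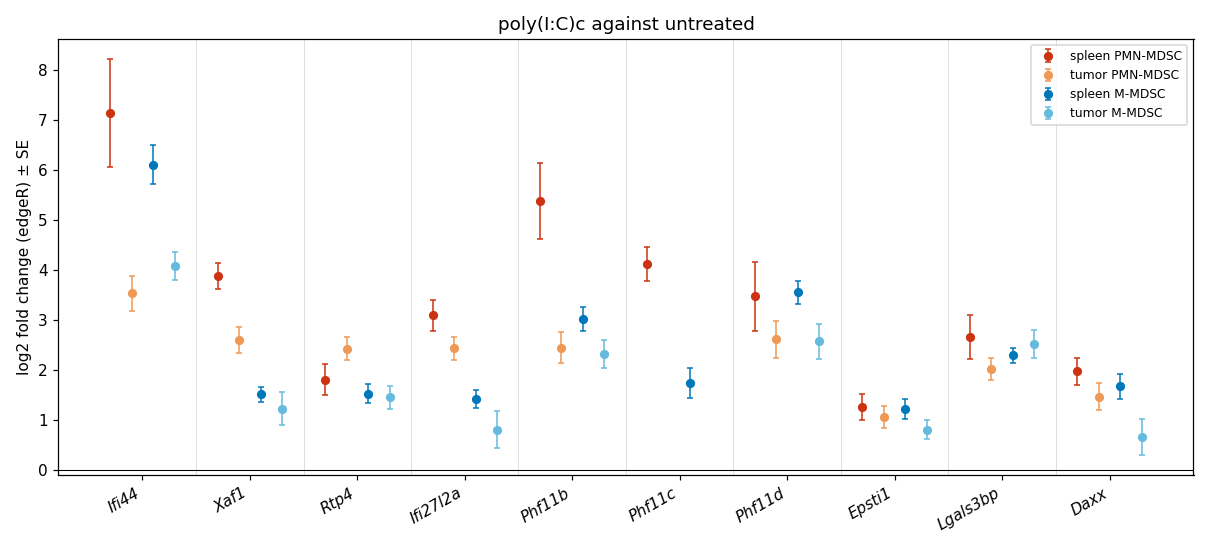
Difference between poly(I:C)c-treated and untreated libraries of each gene on the log2 scale in the 4 MDSC populations (points are edgeR log2 fold changes, bars are ± 1 SE). All points lie above 0, from 0.67 for Daxx in tumor M-MDSC to 7.14 for Ifi44 in spleen PMN-MDSC, and Phf11c has no point in the tumor because it was below the count minimum.

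Over the members that could be fitted, the median log2 difference was 3.29 in spleen PMN-MDSC (10 genes, 1.27 to 7.14), 2.44 in tumor PMN-MDSC (9 genes, 1.06 to 3.53), 1.71 in spleen M-MDSC (10 genes, 1.23 to 6.11) and 1.46 in tumor M-MDSC (9 genes, 0.67 to 4.08). Over all genes fitted, the medians lay between -0.01 and 0.01. Without the library that stood apart, the median was 3.49 (untreated) or 3.60 (treated) in spleen PMN-MDSC and 1.67 in tumor M-MDSC, within ranges of 3.05 to 3.60 and 1.33 to 1.67 over all omissions of a single library. These values, and the separation of treated from untreated libraries given above, describe the choice of the genes and support nothing further. Marker sums moved with treatment too. In tumor PMN-MDSC the neutrophil sum was 994 to 3179 CPM untreated and 2851 to 9016 CPM treated, and Ly6g was at 0 to 9.19 against 5.02 to 76.2 CPM. The monocyte sum was 8804 to 12064 CPM in untreated and 1974 to 4635 CPM in treated tumor M-MDSC, 4145 to 8404 against 1193 to 2659.6 CPM in tumor PMN-MDSC, and 5864 to 8665 against 2872 to 4056 CPM in spleen M-MDSC. In spleen PMN-MDSC the macrophage sum was 229 to 717 CPM untreated and 32.04 to 74.9 CPM treated, the neutrophil sum 12359 to 20911 against 22355 to 29177 CPM, and the sums of B cell, T cell, dendritic and endothelial markers were lower in every treated library, at 8.32 to 22.6, 1.08 to 3.34, 0 to 2.23 and 9.61 to 15.2 CPM against 25.1 to 63.1, 8.47 to 16.4, 9.46 to 19.1 and 25.1 to 67.9 CPM. In the spleen the erythroid sum (3 genes) was 19.5 to 142 CPM in untreated and 0 to 1.77 CPM in treated libraries, and in spleen M-MDSC the endothelial sum (3 genes) was 24.8 to 34.8 CPM untreated and 129 to 293 CPM treated. The part of these changes in the members' values was not tested. Under the thresholds of the tests (adjusted p under 0.001 and at least 2-fold), 0.0413% of 7261 genes were called in spleen PMN-MDSC, 0.241% of 8308 in tumor PMN-MDSC, 2.47% of 8827 in spleen M-MDSC and 0.012% of 8360 in tumor M-MDSC by edgeR. DESeq2 called more at the same thresholds, 517 genes (7.15%), 193 genes (2.32%), 610 genes (6.95%) and 215 genes (2.58%) in the same order. An unadjusted p under 0.05 by edgeR was reached by 27.4%, 18.2%, 33.3% and 19.2% of all genes, again in that order. From 1 fit over the 8 MDSC groups, the treatment difference of PMN-MDSC in tumor minus that in spleen ran, on the log2 scale, from -3.65 ± 1.05 for Ifi44 to 0.62 ± 0.37 for Rtp4, with -3.11 ± 0.79 for Phf11c, whose tumor groups alone were below the count minimum, and -2.94 ± 0.67 for Phf11b. In the spleen, the treatment difference of M-MDSC minus that of PMN-MDSC was -2.35 ± 0.73 for Phf11c, -2.33 ± 0.37 for Xaf1, -2.32 ± 0.65 for Phf11b and 0.12 ± 0.76 for Phf11d. These differences share untreated and treated groups with the changes above and were not tested.

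Other genes of the pathway were tested in the same 4 contrasts, and differences between the populations in their changes were not tested. These lists were chosen with earlier results of the same data known, so their p-values are no independent evidence of the response. Of 19 classic antiviral genes, 15 rose in spleen M-MDSC and 0 fell by edgeR's quasi-likelihood test (18 by DESeq2), with a median log2 change of 2.25 over the 19. They were led by Oasl1 (4.76 ± 0.32, adjusted p = 2.67e-05), Rsad2 (4.40 ± 0.30, adjusted p = 2.67e-05) and Ifit1 (4.27 ± 0.27, adjusted p = 2.47e-05). In tumor PMN-MDSC 4 of the 19 rose, with Ifit3 (4.18 ± 0.41), Oasl1 (3.15 ± 0.32) and Cmpk2 (3.08 ± 0.32) in front, while 19 had an unadjusted p under 0.05 and DESeq2 called 18. In spleen PMN-MDSC and tumor M-MDSC 0 of 19 passed, with medians of 3.02 and 1.57, although 19 and 16 had an unadjusted p under 0.05 and DESeq2 called 18 and 9. Of 12 genes of type I IFN signalling, the negative regulator Usp18 (3.303 ± 0.25) and the transcription factor Irf7 (2.95 ± 0.24) rose in spleen M-MDSC and Irf7 (3.88 ± 0.26) rose in tumor PMN-MDSC. In the other populations 0 of the 12 passed, with 7 in spleen PMN-MDSC and 5 in tumor M-MDSC at an unadjusted p under 0.05 and 3 by DESeq2 in each. Medians of this list were 0.75 in spleen PMN-MDSC, 0.34 in tumor PMN-MDSC, 0.66 in spleen M-MDSC and 0.27 in tumor M-MDSC.

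Among 18 relatives and partners of the members, 12 could be tested in spleen M-MDSC, and Phf11a (3.61 ± 0.35, adjusted p = 2.07e-04) and Pml, the gene of the nuclear body protein that recruits DAXX (1.62 ± 0.18, adjusted p = 3.50e-04), rose there. In the remaining 3 populations 0 passed by edgeR, with 6 of 12 in spleen PMN-MDSC, 6 of 13 in tumor PMN-MDSC and 2 of 11 in tumor M-MDSC at an unadjusted p under 0.05, and 4, 3 and 0 by DESeq2. The shares of all genes at that unadjusted p were 27.4%, 18.2% and 19.2%. Median log2 changes of this list were 0.46 in spleen PMN-MDSC, 0.15 in tumor PMN-MDSC, 0.34 in spleen M-MDSC and -0.003 in tumor M-MDSC.

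Without treatment, PMN-MDSC of the tumor and the spleen differed for 3 of the 7 members tested, in opposite directions. Rtp4 was 5.90-fold lower in the tumor (log2 -2.56 ± 0.23, adjusted p = 1.45e-05) and Ifi27l2a 2.59-fold lower (-1.37 ± 0.24, adjusted p = 7.01e-04), while Lgals3bp was 4.10-fold higher (2.04 ± 0.32, adjusted p = 3.75e-04). The libraries of both groups were apart for each of these 3 genes, as for 54.5% of all genes tested. The share called among all 7971 genes was 21.7%. The marker sums also moved in this contrast: macrophage markers as given above, monocyte markers (5 genes) at 4145 to 8404 CPM in the tumor against 662 to 2037 CPM in the spleen, and neutrophil markers (7 genes) at 994 to 3179 CPM against 12359 to 20911 CPM. Their part in the differences of these members was not tested. Phf11b was 1.57 ± 0.46 (adjusted p = 0.013), Daxx -0.61 ± 0.20 (adjusted p = 0.0207), Epsti1 -0.46 ± 0.21 (adjusted p = 0.0839) and Xaf1 -0.45 ± 0.26 (adjusted p = 0.155) and none of the 4 passed. Ifi44, Phf11c and Phf11d were below the count minimum, and of these Ifi44 and Phf11d were higher in every tumor library than in every spleen library. Rtp4 was called in each of the 8 fits that left out a single library. Ifi27l2a and Lgals3bp were both lost without spleen library 2, spleen library 4, tumor library 2 or tumor library 3 (numbered in the order of the table), so that 1 member was called, and one of them was lost without spleen library 3, tumor library 1 or tumor library 4. In the fits that lost both, calls over all genes fell from 1727 to between 937 and 1528.

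In the same comparison 8 of 17 classic antiviral genes were lower in the tumor and 0 were higher, among them Oas3 (-3.32 ± 0.29, adjusted p = 1.31e-05), Cmpk2 (-3.27 ± 0.28, adjusted p = 1.12e-05) and Ifit1 (-2.53 ± 0.25, adjusted p = 2.4e-05), and the list's median was -1.10 against 0.01 over all genes. Of 11 genes of type I IFN signalling 4 were lower, led by Irf7 (-2.25 ± 0.26), Irf9 (-1.61 ± 0.27) and Usp18 (-1.52 ± 0.28), with a median of -0.46. Among 12 relatives and partners (median -0.31), Lgals1, which encodes galectin-1, was higher (3.06 ± 0.41, adjusted p = 1.40e-04) and Sp100, a component of PML bodies, was lower (-1.38 ± 0.15, adjusted p = 4.78e-05). Rtp4 and Ifi27l2a thus had the direction of the antiviral genes that passed, and Lgals3bp the opposite one.

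In M-MDSC without treatment, 0 of 8 members were called between tumor and spleen, with 2 at an unadjusted p under 0.05 and 0 by DESeq2, at a background of 8.6% of 8298 genes, of which 39.0% had an unadjusted p under 0.05 and DESeq2 called 981. The log2 differences of the members ran from -0.43 for Rtp4 (± 0.18, adjusted p = 0.0988) to 0.26 for Lgals3bp (± 0.16, adjusted p = 0.275). Phf11c, below the count minimum and so not tested, was at 7.85 CPM on average in the spleen and 1.24 CPM in the tumor. The libraries did not overlap for Phf11c, Rtp4, Ifi27l2a and Epsti1, all lower in the tumor, as for 37.7% of all genes tested. Of those 3131 genes, 2289 were lower in the tumor, and the median gene had a log2 CPM ratio of -0.24 but a fitted log2 difference of 0.02. Marker sums differed in this contrast too, with macrophage markers at 1507 to 2196 CPM in the tumor against 231 to 309 CPM in the spleen, neutrophil markers at 184 to 460 against 1464 to 2692 CPM and monocyte markers at 8804 to 12064 against 5864 to 8665 CPM, and their part in the differences of members and listed genes was not tested. The feedback inhibitor Socs3 was higher in the tumor (3.93 ± 0.28, adjusted p = 1.53e-06), as the 1 call among 11 signalling genes (median -0.05), and so was H3f3b, a gene of the histone that DAXX handles (1.36 ± 0.13, adjusted p = 9.53e-06), as the 1 call among 11 relatives and partners (median -0.02). Of 19 classic antiviral genes 0 passed (median -0.10), with 9 at an unadjusted p under 0.05 and 2 by DESeq2.

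Under treatment, no member passed at an adjusted p under 0.001 between tumor and spleen PMN-MDSC, where 13% of 8031 genes were called. Of the 10 members, 8 had an unadjusted p under 0.05, DESeq2 called 5, and 6 passed at an adjusted p under 0.05 with at least 2-fold. Over all genes the shares were 60.0% with an unadjusted p under 0.05, 32.6% by DESeq2 and 41.7% at an adjusted p under 0.05. Those closest were lower in the tumor: Phf11c (log2 -2.69 ± 0.42, adjusted p = 0.00103), Ifi27l2a (-2.01 ± 0.33, adjusted p = 0.00138), Xaf1 (-1.70 ± 0.29, adjusted p = 0.00158) and Rtp4 (-1.92 ± 0.33, adjusted p = 0.00168). Lgals3bp had a value of 1.41 ± 0.34 (adjusted p = 0.00823) and was higher in every tumor library. For the 5 members named here the libraries of tumor and spleen did not overlap, as for 56.3% of all genes. The macrophage sum was 2363 to 5245 CPM in the tumor and 32.04 to 74.9 CPM in the spleen, and the neutrophil sum 2851 to 9016 against 22355 to 29177 CPM. Their part in these differences was not tested. The treated spleen library with the fewest counts bears on this result, since without it 2 members were called, Phf11c (log2 -2.96) and Ifi27l2a (-2.28). Calls over all genes went from 1045 to 720 in that fit. Of the classic antiviral genes 2 of 19 were lower in the tumor, Cmpk2 (-2.74 ± 0.34, adjusted p = 4.02e-04) and Oas3 (-2.46 ± 0.32, adjusted p = 4.85e-04), with a list median of -1.43 against 0.04 over all genes. Of the 19, 18 had an unadjusted p under 0.05, DESeq2 called 11 and 14 passed at an adjusted p under 0.05 with at least 2-fold. Of 12 signalling genes 0 passed (median -0.82), with 8 at an unadjusted p under 0.05 and 5 by DESeq2. Of 13 relatives and partners (median -0.40), Lgals1 was higher (4.37 ± 0.63, adjusted p = 7.48e-04).

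Between treated tumor and treated spleen M-MDSC, 0 of 10 members were called, with 5 at an unadjusted p under 0.05 and 0 by DESeq2, at a background of 0.188% of 9026 genes, of which 23.3% had an unadjusted p under 0.05 and DESeq2 called 411. Of the members 9 had a negative log2 difference, down to -1.27 ± 0.57 for Phf11c (adjusted p = 0.225) and -1.13 ± 0.45 for Daxx (adjusted p = 0.18). Without the tumor library of the high macrophage marker sum these were -0.79 and -0.77, and over all omissions of a single library they ran from -2.10 to -0.79 and from -1.47 to -0.77, Phf11c being at -2.10 without the tumor library of its highest level. Lgals3bp stood at 0.46 ± 0.26 (adjusted p = 0.335). None of the 19 antiviral, 12 signalling or 12 related genes passed by edgeR, with medians of -0.79, -0.34 and -0.11, with 9, 5 and 5 at an unadjusted p under 0.05 and 0, 1 and 0 by DESeq2.

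**Figure D3:**
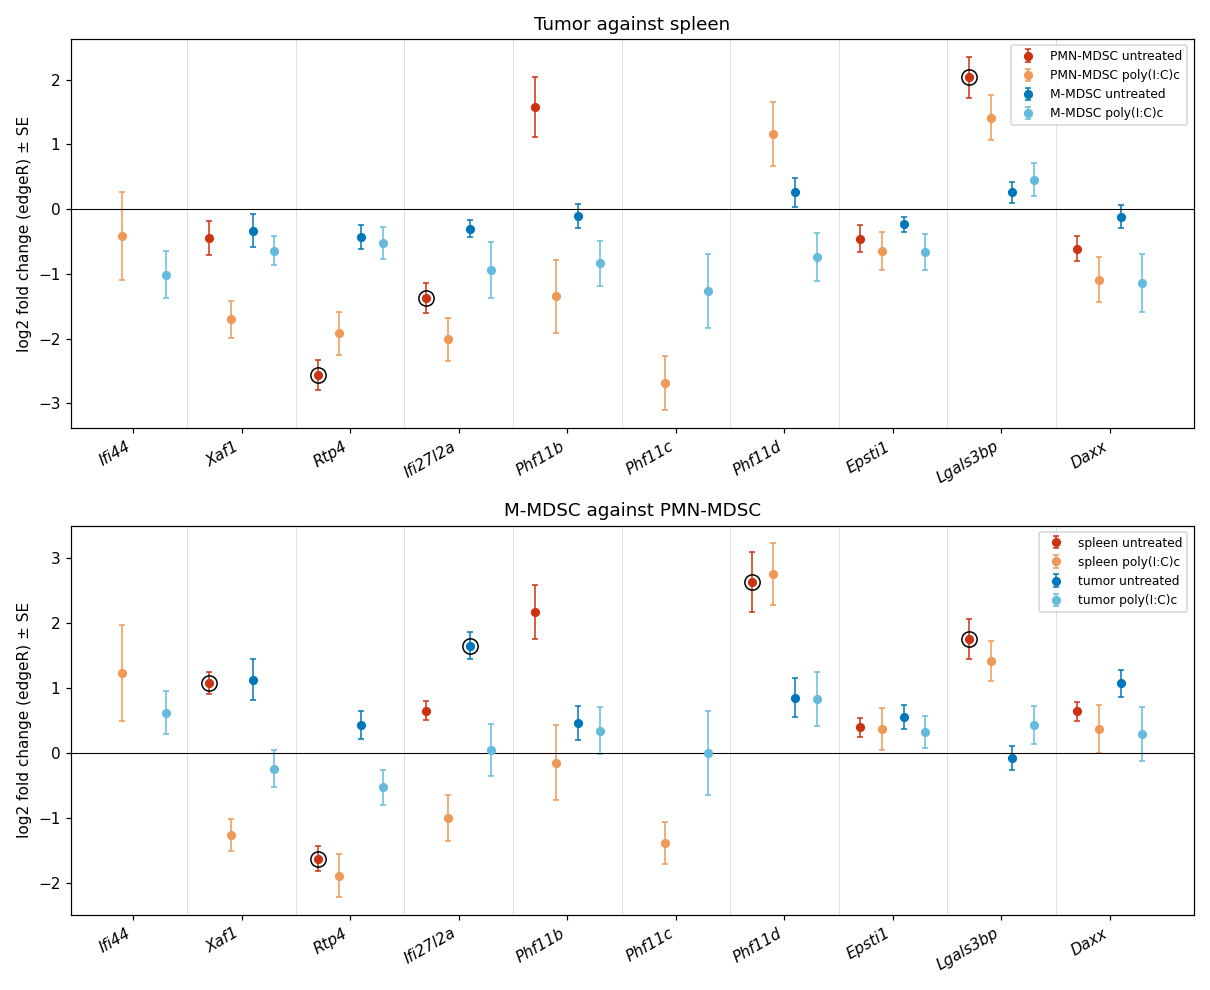
Log2 fold changes with ± 1 SE (edgeR) between tumor and spleen (top, above 0 is higher in the tumor) and between M-MDSC and PMN-MDSC (bottom, above 0 is higher in M-MDSC) for each gene, and a black ring marks an adjusted p under 0.001 with at least 2-fold. In the top panel Rtp4, Ifi27l2a and Lgals3bp carry rings in untreated PMN-MDSC at -2.56, -1.37 and 2.04, and genes below the count minimum have no point.

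Cell type was compared within each compartment. In the untreated spleen, 4 of the 8 members tested differed between M-MDSC and PMN-MDSC, at a background of 23.2% of 8579 genes. Phf11d was 6.18-fold higher in M-MDSC (log2 2.63 ± 0.46, adjusted p = 8.26e-04), Lgals3bp 3.38-fold (1.76 ± 0.31, adjusted p = 8.78e-04) and Xaf1 2.11-fold higher (1.08 ± 0.17, adjusted p = 4.87e-04), while Rtp4 was 3.10-fold lower (-1.63 ± 0.19, adjusted p = 7.31e-05). For all 10 members the libraries of the cell types were apart in CPM, as for 63.5% of all genes tested, and Rtp4 was the only member with the higher level in PMN-MDSC. Phf11b (2.17 ± 0.42, adjusted p = 0.00145), Daxx (0.64 ± 0.14, adjusted p = 0.00328), Ifi27l2a (0.65 ± 0.14, adjusted p = 0.00335) and Epsti1 (0.39 ± 0.14, adjusted p = 0.0365) did not pass. Without the spleen PMN-MDSC library of high monocyte marker counts, 5 members were called, Phf11b being the added one (log2 2.81). Calls over all genes rose in that fit as well, from 1993 to 2786. Rtp4 was called in every fit that left out 1 library, while Phf11d and Lgals3bp were lost without any one of the other 7 libraries and Xaf1 without any one of 6, all but spleen PMN-MDSC library 2 among those 7. Calls over all genes fell too, to between 1219 and 1865 in those 7 fits. CPM and the edgeR scale differ here, since the median gene had a log2 CPM ratio of 0.46 but a log2 fold change of 0.08.

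The antiviral genes split in this comparison. Of 19 classic antiviral genes 3 were higher in M-MDSC and 7 lower (median -0.86), with Rsad2 (-3.25 ± 0.25, adjusted p = 6.17e-06) and Oasl2 (-2.72 ± 0.19, adjusted p = 4.69e-06) lower and Mx1 (2.73 ± 0.44, adjusted p = 5.20e-04) higher. Of 11 signalling genes (median -0.53), Tyk2 was higher (1.55 ± 0.18) and Socs3 (-1.98 ± 0.35) and Jak1 (-1.47 ± 0.14) were lower. Of 12 relatives and partners (median -0.13), Ifi27, a relative of Ifi27l2a, was lower (-2.92 ± 0.34, adjusted p = 7.15e-05), as was the death receptor gene Fas (-1.89 ± 0.21), and Lgals1 (2.48 ± 0.44) and Pml (1.09 ± 0.14) were higher. Ifi27 and Ifi27l2a thus stood on opposite sides of 0.

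With treatment, 0 of 10 members were called between spleen M-MDSC and PMN-MDSC, at a background of 21.2% of 8153 genes. An unadjusted p under 0.05 was reached by 6 members against 65.8% of all genes, DESeq2 called 5 against 40.2%, and 6 passed at an adjusted p under 0.05 with at least 2-fold against 47.4%. Phf11d (log2 2.75 ± 0.48, adjusted p = 0.00154) and Lgals3bp (1.41 ± 0.31, adjusted p = 0.00483) were higher in every M-MDSC library, as were Ifi44 (1.23 ± 0.73, adjusted p = 0.178) and Daxx (0.36 ± 0.37, adjusted p = 0.413), and Rtp4 (-1.89 ± 0.33, adjusted p = 0.0016) was lower in every one. The libraries did not overlap for 64.7% of all genes. Xaf1 had a value of -1.27 ± 0.24 (adjusted p = 0.00253) against 1.08 before treatment, and Phf11c one of -1.39 ± 0.32 (adjusted p = 0.00626). Without the treated PMN-MDSC library of the fewest counts 3 members were called, Phf11d (log2 2.33), Rtp4 (-2.18) and Xaf1 (-1.52). Over all genes 1718 were called in that fit, against 1728 in the main one. The sign of Phf11b, -0.15 ± 0.58 (adjusted p = 0.828), turned under upper-quartile scaling (0.21). Here the median gene had a log2 CPM ratio of 0.66 and a log2 fold change of 0.11, so CPM values set M-MDSC higher than the fit does. Of 19 antiviral genes Cmpk2 alone passed (-2.02 ± 0.27, list median -0.54), and of 12 signalling genes Irf9 alone (-1.40 ± 0.19, list median -0.51). Of 12 relatives and partners (median -0.32), Lgals1 (4.63 ± 0.44) and Pml (1.63 ± 0.22) were higher. In these 3 lists 9, 6 and 6 genes had an unadjusted p under 0.05, DESeq2 called 9, 2 and 4, and 9, 5 and 3 passed at an adjusted p under 0.05 with at least 2-fold.

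In the untreated tumor, 1 of 8 members was called. Ifi27l2a was 3.14-fold higher in M-MDSC than in PMN-MDSC (log2 1.65 ± 0.21, adjusted p = 2.75e-04), with 112 to 142 CPM against 28.7 to 57.6 CPM, and 1.65% of 7623 genes were called. It was no longer called when any of 5 of the 8 libraries was left out singly, 2 of M-MDSC and 3 of PMN-MDSC, nor in a fit over all 9 groups. Calls over all genes fell too, from 126 to between 53 and 90 in those 5 fits and to 75 over all 9 groups. The macrophage sum was 1507 to 2196 CPM in M-MDSC and 2820 to 3656 CPM in PMN-MDSC, and the monocyte sum 8804 to 12064 against 4145 to 8404 CPM, and their part in this difference was not tested. Daxx had a value of 1.07 ± 0.21 (adjusted p = 0.00452) and Xaf1 one of 1.13 ± 0.32 (adjusted p = 0.034). By edgeR 0 of 17 antiviral genes (median 0.51), 0 of 11 signalling genes (median 0.26) and 0 of 11 related genes (median 0.04) passed, with 9, 5 and 3 at an unadjusted p under 0.05 and 0, 1 and 1 by DESeq2. Of all genes 27.7% had an unadjusted p under 0.05, and DESeq2 called 388. In the treated tumor 0 of 10 members and 0% of 8955 genes were called by edgeR, with 0 members and 1153 genes at an unadjusted p under 0.05, and 0 members and 93 genes called by DESeq2. The members' log2 values ran from -0.53 ± 0.26 for Rtp4 (adjusted p = 0.426) to 0.82 ± 0.42 for Phf11d (adjusted p = 0.429). The 3 lists had 0 calls and medians of 0.004, -0.07 and 0.001 for the 19 antiviral, 12 signalling and 13 related genes, with 1, 0 and 2 at an unadjusted p under 0.05 and 0 by DESeq2.

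**Figure D4:**
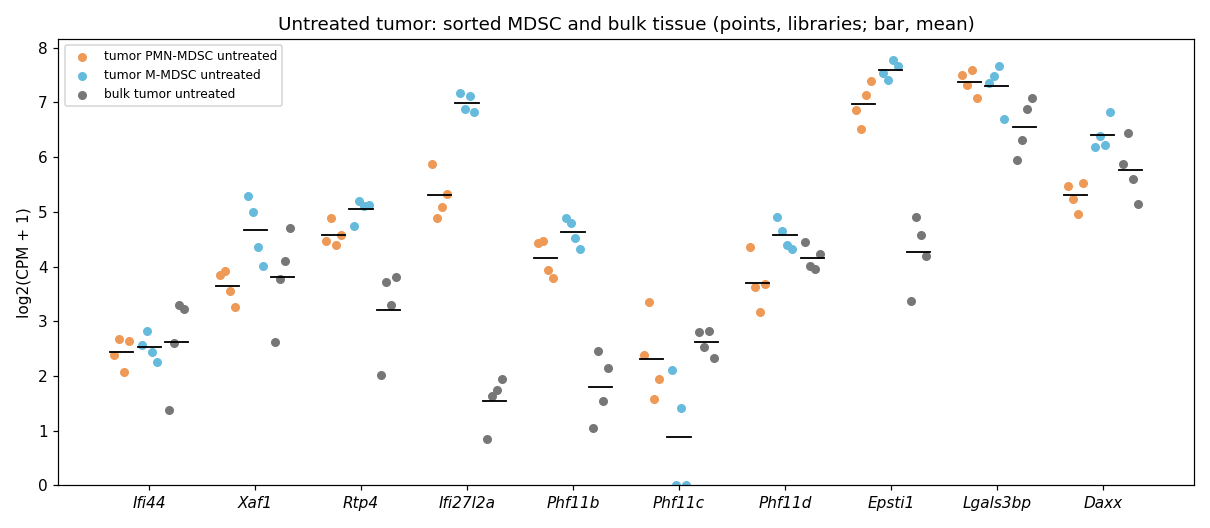
Level of each gene as log2(CPM + 1) in untreated tumor PMN-MDSC, tumor M-MDSC and bulk tumor (4 libraries each, bars are means of the log2 values). Ifi27l2a lies at 0.793 to 2.86 CPM in bulk tumor and at 28.7 to 142 CPM in MDSC, while Ifi44 overlaps between all 3.

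Set against unsorted tumor, the members fell into those that were far lower in bulk tissue and those that were not. Ifi27l2a was 23.5-fold lower in bulk tumor than in tumor PMN-MDSC (log2 -4.55 ± 0.35, adjusted p = 3.94e-07) and 70.4-fold lower than in tumor M-MDSC (-6.14 ± 0.30, adjusted p = 2.41e-08), at 0.793, 2.12, 2.36 and 2.86 CPM. Phf11b, at 1.06, 4.51, 1.91 and 3.43 CPM in bulk, was lower by log2 values of -3.01 ± 0.41 (adjusted p = 4.15e-05) and -3.40 ± 0.40 (adjusted p = 1.4e-05), and Epsti1, at 9.38, 29.2, 22.7 and 17.4 CPM, by -3.02 ± 0.32 (adjusted p = 7.21e-06) and -3.51 ± 0.29 (adjusted p = 9.58e-07). Rtp4, at 3.04, 12.2, 8.78 and 13.1 CPM, passed against M-MDSC (-2.005 ± 0.37, adjusted p = 5.10e-04) and missed against PMN-MDSC (-1.64 ± 0.37, adjusted p = 0.00191). The first of these calls was lost without tumor M-MDSC library 2, 3 or 4, without bulk library 3 or with upper-quartile scaling. In all, 3 of 9 members were called against PMN-MDSC and 4 of 9 against M-MDSC, all lower in bulk, at backgrounds of 40.1% of 11138 genes and 41.9% of 11022 genes. Counted in either direction, the members' shares were thus close to those of all genes. Of the calls over all genes, 2362 and 2162 were lower in bulk and 2107 and 2457 were higher.

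Ifi44, at 1.59, 5.04, 8.89 and 8.36 CPM in bulk tumor, differed by 0.12 ± 0.50 from PMN-MDSC (adjusted p = 0.847) and by 0.11 ± 0.50 from M-MDSC (adjusted p = 0.855). Phf11d, at 20.8, 15.1, 14.5 and 17.7 CPM, differed by 0.16 ± 0.28 (adjusted p = 0.62) and -0.63 ± 0.24 (adjusted p = 0.0343). Daxx (57.4, 86.4, 47.6 and 34.3 CPM), Xaf1 (5.15, 12.7, 16.2 and 24.96 CPM) and Lgals3bp (60.7, 78.2, 117 and 134 CPM) overlapped with both MDSC populations and did not pass, Lgals3bp having the lowest adjusted p among them (-1.07 ± 0.23 against PMN-MDSC, adjusted p = 0.0012). Phf11c was below the count minimum, at 5.95, 4.77, 6.08 and 4.01 CPM in bulk. In bulk against PMN-MDSC, 11 of 18 antiviral genes were lower and 0 higher (median -1.84), led by Oas1a (-5.39 ± 0.42), Rsad2 (-4.50 ± 0.26) and Oas3 (-4.38 ± 0.47), and against M-MDSC 12 of 18 (median -2.09), led by Oas1a (-6.15 ± 0.32), Oas3 (-5.28 ± 0.51) and Oas2 (-4.47 ± 0.51). Of 11 signalling genes 9 were lower in both contrasts (medians -1.80 and -2.04), with Socs3 in front (-5.61 ± 0.23 and -6.13 ± 0.30), then Irf7 (-2.55 ± 0.36 and -3.54 ± 0.38), and then Ifnar2 (-2.49 ± 0.17 and -2.61 ± 0.19). Of 13 relatives and partners 2 were higher and 4 lower in each (medians -0.04 and 0.15). Ifi27l2b, the paralog of Ifi27l2a, was higher in bulk (4.17 ± 0.63 and 4.61 ± 0.81, adjusted p = 1.76e-04 and 3.97e-04), at 45.8 ± 20.0 CPM (SD, n = 4), and Sp100 was lower (-3.68 ± 0.27 and -4.38 ± 0.29). The third by size was Birc3, an inhibitor of apoptosis gene, against PMN-MDSC (-3.43 ± 0.28) and Lgals3, the galectin-3 gene, against M-MDSC (-3.44 ± 0.24).

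Across the 30 MDSC libraries, the members did not vary as 1 group. Pearson's r of log2(CPM + 1) was 0.94 between Phf11d and Lgals3bp, 0.94 between Ifi44 and Phf11b and 0.93 between Xaf1 and Ifi27l2a, but 0.23 between Rtp4 and Phf11d and 0.17 between Rtp4 and Lgals3bp. Phf11c reached at most 0.80, with Xaf1. These libraries share treatment, cell type and depth, so the correlations are a description only. Among 8536 genes that are expressed, those most like Ifi44 were Ly6a (0.95), Cfb (0.95) and Bst2 (0.93), and those most like Lgals3bp were Grn (0.96), Bst2 (0.96) and Cfb (0.94). Phf11d was also closest to Bst2 (0.95), Cfb (0.94) and Tor3a (0.94). Rtp4 was closest to Oas3 (0.96), Cmpk2 (0.96) and Trim30a (0.94), Xaf1 to Ube2l6 (0.97), Ifit1bl1 (0.95) and Zbp1 (0.95), and Ifi27l2a to Slfn5 (0.95), Ogfr (0.93) and Oas1a (0.92). The nearest genes were Parp12, Ifi213 and Mx2 (0.94 each) for Phf11b, Herc6 (0.86), Nt5c3 (0.84) and Mitd1 (0.84) for Phf11c, Rnf213 (0.91), Znfx1 (0.90) and Tor1aip1 (0.90) for Epsti1, and Ifi35 (0.95), Nmi (0.94) and Ogfr (0.94) for Daxx.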

How the data were processed

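The deposited values are raw counts per gene, which the authors made by mapping reads of total RNA libraries (SMARTer Stranded, no molecular identifiers described) to mm10 (GRCm38) with ContextMap and BWA and counting by strand with featureCounts (Subread 1.4.6-p3) on Gencode v16. The members and gene lists were chosen with earlier results of these data known. Symbols, positions and exon lengths were matched by Ensembl identifier to GENCODE M21. Column names, which state population, organ and treatment, gave the groups. Libraries under 1000 counts were left out. The 48 pairs of libraries within groups had a chi-square per degree of freedom of 6.19 to 49.5, so no pair differed by as little as sampling noise. CPM is counts per 1000000 counts of the library and FPKM is CPM per kilobase of exon. Each contrast was fitted with edgeR 4.0.16 (R 4.3.3, TMM, robust quasi-likelihood test, two-sided) on its own libraries, after dropping genes that averaged under 25 counts, and called at a Benjamini-Hochberg adjusted p under 0.001 with at least 2-fold, the filter and thresholds of the study's methods, which used DESeq2. SE is the log2 fold change over the root of F. The code was tested on simulated counts. Alternatives were DESeq2 1.42.0, RLE and upper-quartile scaling, no count filter, an adjusted p under 0.05, 1 fit over all 9 groups and the omission of each library. Genes named beside the members were the 3 of each list with the largest change among those that passed, and the 3 most correlated with each member. Marker lists covered neutrophils, monocytes, macrophages and epithelial cells, and further cell types that are summarized in the closing part. The alleles of the tumor line are not reported here.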

Additional observations from a re-analysis of the deposited data

Results flagged for a closer look

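In the groups of 4 libraries, 3 of 70 sets of values had a highest or lowest library whose gap to the next exceeded Dixon's limit, where chance gives about 1 in 20. Phf11b in untreated spleen M-MDSC was at 26.1 CPM in 1 library and at 32.6 to 33.9 CPM in the others. In treated tumor PMN-MDSC, Phf11c was at 15.9 CPM in 1 library and at 6.49 to 7.39 CPM in the others. Lgals3bp in treated spleen M-MDSC was at 585 CPM in 1 library and at 804 to 827 CPM in the others.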

How the results depend on the processing

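No paired analysis was possible from the column names alone, because the deposited columns carry no mouse number. The columns list the populations in the same order as the sample titles, which do carry numbers. Libraries were not matched to mice by that order, and no paired fit was run. The contrasts between compartments and cell types therefore treat as independent libraries that may come from the same mice, and the effect of pairing on the calls was not tested. The count of members called moved most for treated tumor against spleen PMN-MDSC, where 0 in the main test became 5 with DESeq2, 1 with RLE scaling, 6 without the count filter, 5 in the fit over all 9 groups and 6 at an adjusted p under 0.05, and for treated spleen M-MDSC against PMN-MDSC, where 0 became 5 with DESeq2, 1 with upper-quartile scaling, 4 without the filter, 4 in the fit over all 9 groups and 6 at an adjusted p under 0.05. Calls over all genes rose too, from 1045 to 3545 without the filter and 2891 in the fit over all 9 groups in the former contrast, and from 1728 to 3646 and 3406 in the latter. For untreated tumor M-MDSC against PMN-MDSC, 1 became 2 with DESeq2, 2 without the filter, 0 in the fit over all 9 groups and 3 at an adjusted p under 0.05. Calls over all genes went from 126 to 388, 579, 75 and 488 in the same order. Without the filter the count was 5 for untreated tumor against spleen PMN-MDSC and 1 for treated tumor against spleen M-MDSC. Over all genes these settings moved the calls from 1727 to 3594 and from 17 to 861. Bulk tumor against tumor PMN-MDSC gave 5 with DESeq2 and 5 at an adjusted p under 0.05, while calls over all genes went from 4469 to 5235 and 5692. Leaving out each library gave 1 to 3 calls for untreated and 0 to 2 for treated tumor against spleen PMN-MDSC, 1 to 5 for untreated and 0 to 3 for treated spleen M-MDSC against PMN-MDSC, 0 to 1 for untreated tumor M-MDSC against PMN-MDSC, and 2 to 4 and 3 to 4 for bulk tumor against tumor PMN-MDSC and M-MDSC. The median treatment difference in tumor M-MDSC was 1.90 without the filter, which admits Phf11c. Signs turned only for values that were not called. Phf11b in treated spleen M-MDSC against PMN-MDSC was 0.21 with upper-quartile scaling and -0.65 to 0.44 over omissions, and Phf11c in treated tumor M-MDSC against PMN-MDSC was 0.083 with upper-quartile scaling, 0.023 without the filter and -0.17 to 0.49 over omissions. In the same contrast omissions gave -0.62 to 0.38 for Ifi27l2a and -0.079 to 0.64 for Daxx. For Ifi44 in treated tumor against spleen PMN-MDSC they gave -0.96 to 0.10, for Lgals3bp in untreated tumor M-MDSC against PMN-MDSC -0.18 to 0.066, and for bulk tumor against tumor PMN-MDSC -0.066 to 0.48 for Ifi44, -0.29 to 0.37 for Xaf1, -0.044 to 0.41 for Phf11d and -0.025 to 0.47 for Daxx. Apart from the changes shown by the filter's own construction, the cause was not tested. Depth limits Phf11c and Ifi44, which fell under the count minimum in 8 and 4 of the 14 contrasts, and Phf11d, which did so in 1.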

Other observations

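Marker lists of other cell types were summed in each library. The highest sums in any MDSC library were 32.3 CPM for dendritic cells (4 markers), 136 CPM for T cells (4 markers), 114 CPM for B cells (4 markers), 15.04 CPM for NK cells (2 markers), 142 CPM for erythroid cells (3 markers), 83.8 CPM for fibroblasts (4 markers), 293 CPM for endothelium (3 markers, against 53.0 to 92.5 CPM in bulk tumor) and 26.01 CPM for acinar cells (3 markers). The T cell maximum belongs to the treated tumor M-MDSC library in which Ifi27l2a and Daxx were lowest, against 6.74 and 20.3 CPM in the other libraries of its group, and the erythroid maximum to the untreated spleen PMN-MDSC library in which Phf11b, Phf11d and Lgals3bp were highest, against 41.8 to 88.3 CPM. Their part in these levels was not tested.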
